A study of Mus musculus with 6 samples.

Results

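The family of miR-148 and miR-152 in the mouse consists of miR-148a, miR-148b and miR-152, and both arms of each were followed here, 6 of the 1573 rows named as known miRNAs in a table of 61628 rows. The members were taken by name, with earlier results of these data known. Small RNA had been sequenced from primary testicular peritubular myoid cells of C57BL/6J mice, the flat contractile cells that wrap the seminiferous tubules. One group of 3 libraries came from cells given 50 nM endothelin-1 (ET1), a peptide that contracts smooth muscle, for 5 min, and the other group of 3 from untreated cells; cells of both groups had been cultured with fetal bovine serum. The labels do not say whether libraries of a group came from separate cultures or animals, so every p-value reflects how far these libraries scatter, and that scatter may be technical.

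A microRNA is cut from a hairpin precursor as a duplex of a 5p and a 3p arm, and the arm that stays in Argonaute guides it to mRNAs, mainly through bases 2 to 8, the seed. In this family the 3p arm is the usual guide and the 5p arm the usual passenger, and the 3 guides are expected to bind much the same sites because they share a seed. In human cells the guides are known for repressing DNMT1, the enzyme that maintains DNA methylation. The mature arms below are given 5′ to 3′ from RefSeq (GRCm38.p6), with the seed in capitals, because the seed defines the family and the bases behind it are all that separates the 3 guides in a tag count.

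mmu-miR-148a-3p: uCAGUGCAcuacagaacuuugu
mmu-miR-148b-3p: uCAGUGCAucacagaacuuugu
mmu-miR-152-3p: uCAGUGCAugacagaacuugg
mmu-miR-148a-5p: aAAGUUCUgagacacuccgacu
mmu-miR-148b-5p: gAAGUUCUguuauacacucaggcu
mmu-miR-152-5p: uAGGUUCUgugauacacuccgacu

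The 3 guides share the seed CAGUGCA, which no other of the 1679 mature names in the RefSeq table has (0.179% of them are the 3 guides). Counted from 1 at the 5′ end, miR-148a-3p and miR-148b-3p differ by C9U and U10C over 22 bases. miR-148b-3p and miR-152-3p differ by C10G and U20G over the 21 bases they share in length, and miR-148a-3p and miR-152-3p by C9U, U10G and U20G. How many mismatches the authors' tag assignment allowed is not given in the sources used here, so counts of single guides are uncertain to that extent. The passengers miR-148a-5p and miR-148b-5p share the seed AAGUUCU, whereas miR-152-5p has AGGUUCU, and over 22 bases miR-148a-5p differs from the other two at 9 and 10 positions.

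The precursors lie on 3 chromosomes and are given 5′ to 3′ with both mature arms in capitals, to show where on the hairpin each counted arm sits.

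Mir148a: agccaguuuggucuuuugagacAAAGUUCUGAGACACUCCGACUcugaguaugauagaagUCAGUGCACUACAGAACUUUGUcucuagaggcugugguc
Mir148b: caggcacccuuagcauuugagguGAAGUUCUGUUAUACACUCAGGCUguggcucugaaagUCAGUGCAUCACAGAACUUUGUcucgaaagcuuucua
Mir152: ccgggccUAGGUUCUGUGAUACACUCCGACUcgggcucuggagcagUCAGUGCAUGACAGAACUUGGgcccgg

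Mir148a (chr6:51269812-51269910, minus strand, GRCm38) overlaps no other gene of the GENCODE M21 annotation. Mir148b (chr15:103285125-103285221, plus strand) lies in an intron of Copz1 on the same strand, and Mir152 (chr11:96850393-96850465, plus strand) in an intron of Copz2 on the same strand. Copz1 and Copz2 encode the 2 forms of the zeta subunit of coatomer, the coat of vesicles that move between Golgi and endoplasmic reticulum.

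Libraries held 18127265 to 19493731 tags in the ET1 group and 18972157 to 20895432 tags in the untreated group. Known miRNAs made up 24.3% ± 1.53 of the ET1 tags and 38.2% ± 7.75 of the untreated tags, and rRNA fragments 9.44% ± 2.05 and 4.55% ± 1.22 (SD, n = 3 each). The share of known miRNA tags did not overlap between the groups, at 22.6% to 25.5% in ET1 and 30.1% to 45.6% in untreated libraries. A fit with the share of known miRNA tags as a term therefore cannot tell the treatment from the share. In that fit the log2 fold changes of the guides were −0.74 (miR-148a-3p), 1.12 (miR-148b-3p) and 0.24 (miR-152-3p). None of the guides passed (edgeR adjusted p = 0.86, 0.86 and 0.98), and 0 of the 616 tested miRNAs did. The smooth muscle markers miR-143 and miR-145a were abundant, with a summed level of 12964 to 15534 CPM in ET1 and 20367 to 27744 CPM in untreated libraries. CPM are tags scaled to 1000000 known miRNA tags, for all markers here after the TMM scaling described further on. Markers of other cells were also counted, among them the endothelial miR-126a arms (114 to 163 CPM in ET1, 1107 to 1883 CPM in untreated libraries), leukocyte miRNAs (36.3 to 40.6 and 236 to 323 CPM), red cell miRNAs (38.3 to 303 and 48.9 to 673 CPM), epithelial and Sertoli miRNAs (616 to 1795 and 894 to 1395 CPM), striated muscle miRNAs (110 to 210 and 276 to 359 CPM), mesenchymal miRNAs (26556 to 36079 and 33556 to 47838 CPM) and germ cell miRNAs (34920 to 75292 and 34616 to 72278 CPM). No marker matched by name was at 0 in all libraries, and 3 of the 4 mesenchymal names were matched. Some sums hold members that differed in sign of log2 fold change. Of the leukocyte miRNAs miR-150-5p was at −3.45 and miR-223-3p at 0.29, and the miR-142a arms were under the filter. Of the mesenchymal miRNAs miR-22-3p was at −0.65, miR-199a-5p at 0.67 and miR-214-3p at 1.03. Of the striated muscle miRNAs miR-1a-3p was at −1.26, miR-133a-3p at −1.53 and miR-206-3p at 0.34. The germ cell sum was nearly all miR-470-5p, whose mean was 50011 CPM with ET1 against 48687 CPM without (log2 fold change 0.039). The other members were low, miR-34c-5p at means of 74.2 against 38.1 CPM and miR-449a-5p at 183 against 46.1 CPM. Their log2 fold changes were 0.96 and 1.99, and neither passed (edgeR adjusted p = 0.37 and 0.086). In bulk RNA fewer cells of a type and less RNA per cell cannot be told apart.

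The family was a minor part of the miRNA pool. Its 6 arms together held 646, 423 and 583 tags in ET1 libraries 1, 2 and 3, and 991, 777 and 535 tags in untreated libraries 1, 2 and 3. This was 0.0119% ± 0.00216 of known miRNA tags in the ET1 and 0.00992% ± 0.002 in the untreated libraries (SD, n = 3 each), a difference within the spread between libraries. In a single library the exact 95% binomial interval of the share, which covers counting error only, was at its widest 0.0129% to 0.0151% (ET1 library 1). In RPM, tags scaled to 1000000 of all tags in the table, the family held 29.1 ± 6.96 RPM in ET1 and 38.1 ± 11.1 RPM in untreated libraries, so the sign of the difference depended on the denominator.

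miR-152-3p was the most abundant member on average in both groups. It had 237, 195 and 344 tags in ET1 libraries 1, 2 and 3, and 655, 443 and 246 tags in untreated libraries 1, 2 and 3. After TMM scaling, which sets the libraries level by the bulk of the known miRNAs, these were 44.5, 41.2 and 60.4 CPM in ET1 libraries, and 92.4, 62.7 and 41.3 CPM in untreated libraries. The groups overlapped, since untreated library 3 lay next to the lowest ET1 library. miR-152-3p stood between rank 181 and rank 248 of the known miRNAs in all 6 libraries.

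After TMM scaling miR-148b-3p was higher in each ET1 library than in any untreated library, where it was low and even. It had 296, 149 and 138 tags in ET1 libraries, against 147, 139 and 110 in untreated libraries, although the untreated libraries held more known miRNA tags. This gave 55.6, 31.5 and 24.2 CPM in ET1 libraries, against 20.7, 19.7 and 18.5 CPM in untreated libraries. The groups did not overlap, which held with ET1 higher for 12.5% of the 616 tested miRNAs, and ET1 library 1 stood well above the other two. On the scale of all tags, given further on, the groups overlapped. Its rank ran from 211 to 291 in ET1 and from 309 to 321 in untreated libraries.

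After TMM scaling miR-148a-3p was lower in each ET1 library than in any untreated library. It had 103, 72 and 95 tags in ET1 libraries, against 179, 181 and 172 in untreated libraries. These were 19.3, 15.2 and 16.7 CPM in ET1 libraries, against 25.2, 25.6 and 28.9 CPM in untreated libraries. All 3 ET1 libraries lay below all 3 untreated libraries, as for 11% of the 616 tested miRNAs, and the libraries within a group were close to each other. In CPM without TMM the groups overlapped. Its rank ran from 315 to 338 in ET1 and from 271 to 288 in untreated libraries.

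**Figure D1:**
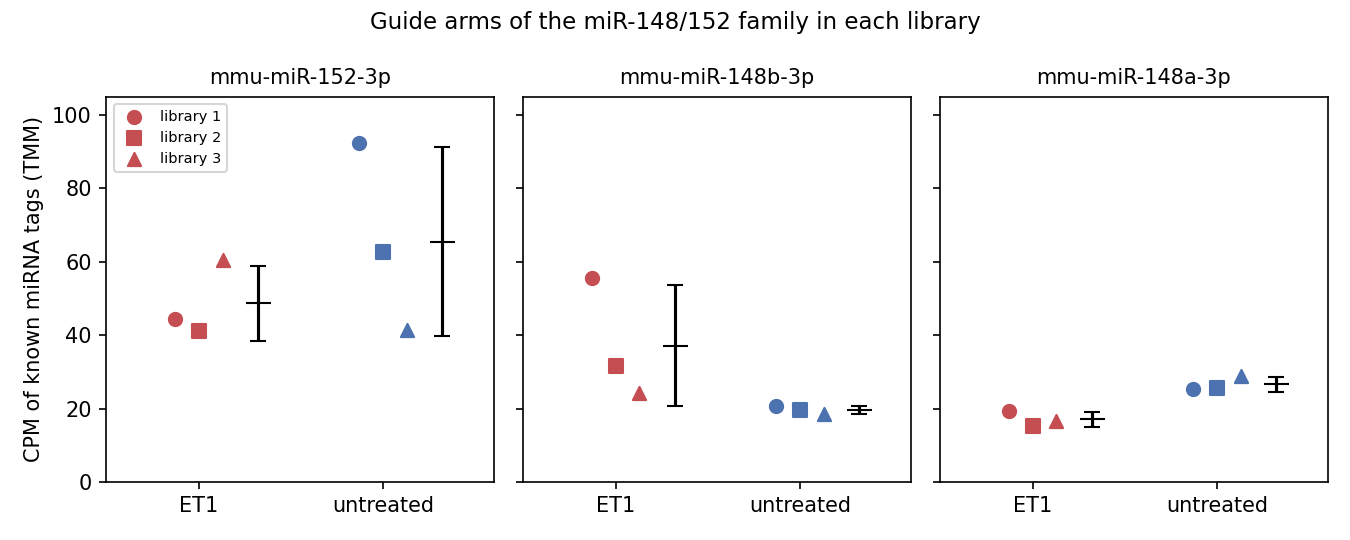
Level of each guide arm (CPM of known miRNA tags after TMM, linear axis) in the 3 ET1 and 3 untreated libraries; symbols mark the library number, and the bar beside them is the mean ± SD of the group. miR-148b-3p is above 24 CPM in each ET1 library and below 21 CPM in each untreated library, miR-148a-3p is below 20 and above 25 CPM, and the groups overlap for miR-152-3p, all on the TMM scale.

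The passenger arms were close to the limit of counting. miR-148a-5p had 4, 5 and 4 tags in ET1 and 7, 7 and 4 in untreated libraries. miR-152-5p had 6, 2 and 2 tags in ET1 and 3, 5 and 3 in untreated libraries. miR-148b-5p had 0 tags in each ET1 library, where a count of 0 allows up to 0.527 to 0.634 CPM (3 tags per library), and 0, 2 and 0 tags in untreated libraries. None of the 3 passed the filter on low counts, and the groups overlapped in CPM for each.

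Of the 6 arms, the 3 guides passed the filter and entered the test (edgeR quasi-likelihood, two-sided, Benjamini-Hochberg adjusted over 616 known miRNAs, threshold 0.05), and none of the 3 passed, where 1.79% of the 616 did. At an unadjusted p under 0.05 edgeR gave 0 of the 3 guides against 18.3% of all tested miRNAs, and DESeq2 0 of the 3 against 18.5%. At its adjusted p DESeq2 also gave 0 of the 3, where 6.33% of all tested miRNAs were under the threshold. The median log2 fold change of the 3 guides was −0.43, and that of all 616 was 0.0058.

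miR-148b-3p averaged 37.1 ± 16.4 CPM in the ET1 group and 19.6 ± 1.14 CPM in the untreated group (SD, n = 3 each), a log2 fold change of 0.92 (SE 0.47; edgeR adjusted p = 0.33). The 95% interval of −0.083 to 1.92 includes 0. Without ET1 library 1 the log2 fold change was 0.48 (edgeR adjusted p = 0.65).

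miR-148a-3p averaged 17.1 ± 2.1 CPM in the ET1 group and 26.6 ± 1.98 CPM in the untreated group (SD, n = 3 each), a log2 fold change of −0.64 (SE 0.43; edgeR adjusted p = 0.46), with a 95% interval of −1.55 to 0.28. Its coefficient of variation between libraries, 12.3% in ET1 and 7.47% in untreated libraries, was near the 7.43% to 11.8% that counting alone gives at 72 to 181 tags. The SE of the fit also draws on the dispersion of all known miRNAs, as edgeR shares it between them.

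miR-152-3p averaged 48.7 ± 10.2 CPM in the ET1 group and 65.5 ± 25.7 CPM in the untreated group (SD, n = 3 each), a log2 fold change of −0.43 (SE 0.45; edgeR adjusted p = 0.68), with a 95% interval of −1.40 to 0.55. The coefficient of variation was 21.04% in ET1 libraries and 39.2% in untreated libraries, against a counting error of 3.91% to 7.16%. Without untreated library 1 the log2 fold change was −0.084, and with the share of known miRNA tags as a term it was 0.24 (edgeR adjusted p = 0.96 and 0.98).

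Levels without overlap were common in this table. On the TMM scale they were found for 23.5% of the 616 tested miRNAs, in either direction, so 1 guide higher and 1 lower without overlap is not set apart from the rest by that measure alone.

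Scaling moved all 3 guides together. In the authors' deposited RPM values miR-148a-3p had 5.67, 3.7 and 4.87 RPM in ET1 libraries, against 8.56, 9.54 and 8.31 RPM in untreated libraries, again without overlap; ET1 was lower without overlap for 15.7% of the tested miRNAs on this scale. miR-148b-3p had 16.3, 7.66 and 7.08 RPM in ET1 libraries, against 7.03, 7.33 and 5.31 RPM in untreated libraries, and here the groups overlapped. In CPM of known miRNA tags without TMM it was the reverse. miR-148a-3p overlapped, at 22.3, 16.4 and 19.7 CPM in ET1 libraries, against 22.1, 20.9 and 27.6 CPM in untreated libraries. miR-148b-3p did not overlap on that scale, at 64, 34 and 28.6 CPM in ET1 libraries, against 18.1, 16.1 and 17.6 CPM in untreated libraries; ET1 was higher without overlap for 20.9% of the tested miRNAs.

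The log2 fold changes moved with the scaling by nearly the same amount as the median miRNA did. A change of scaling shifts every miRNA by nearly the same amount, so this was fixed in advance and is no trait of the guides. miR-148a-3p was at −0.27 with library sizes alone, −0.64 with TMM, −0.89 with all tags of the table as library size and −1.11 with all named rows fitted together. miR-148b-3p was at 1.29, 0.92, 0.66 and 0.41 in the same order, and the median of all tested miRNAs at 0.37, 0.0058, −0.26 and −0.46. Relative to that median miR-148a-3p was therefore between −0.65 and −0.63 and miR-148b-3p between 0.87 and 0.92. An unadjusted edgeR p under 0.05 was reached by miR-148b-3p with library sizes alone (edgeR adjusted p = 0.15) and where only miRNAs reaching 10 CPM in 3 libraries were tested (log2 fold change 0.99, 95% interval 0.0072 to 1.97; edgeR adjusted p = 0.25), and by miR-148a-3p with all named rows (edgeR adjusted p = 0.36). Of all miRNAs tested in these fits 20.6%, 19.8% and 18.8% had such an unadjusted p. After adjustment 6.66% passed with library sizes alone and 0% with all named rows.

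**Figure D2:**
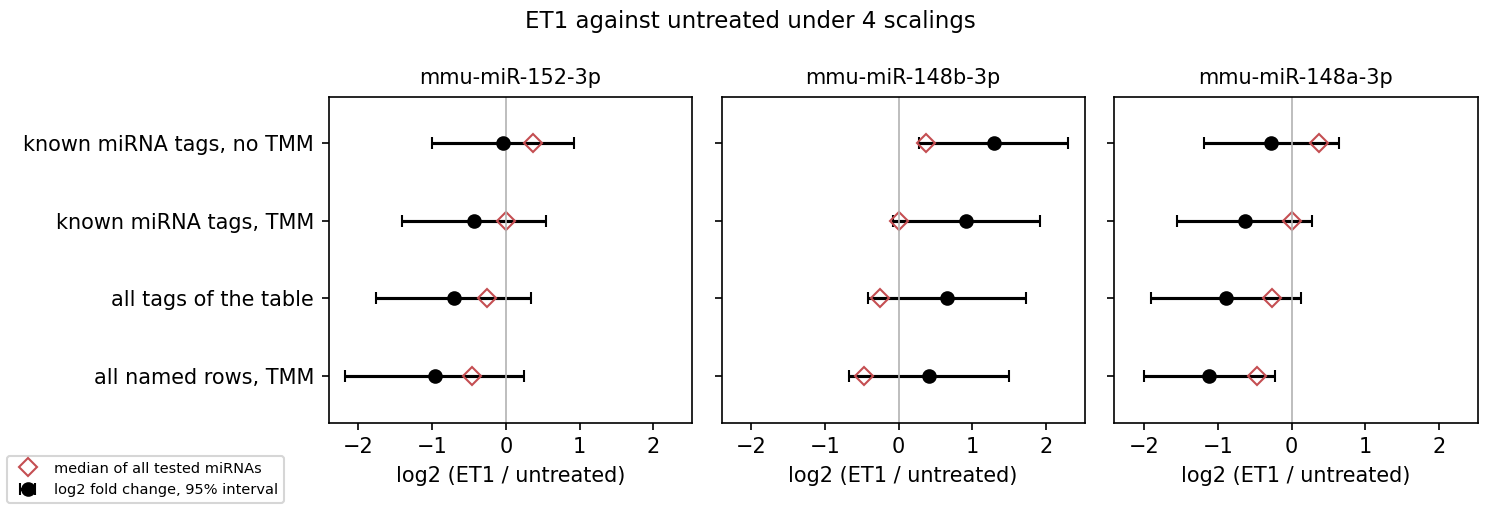
The log2 fold change of ET1 over untreated for each guide (filled circles, with the 95% interval of the edgeR fit) under 4 ways of scaling the libraries, from known miRNA tags at the top to all named rows at the bottom; open diamonds are the median of all tested miRNAs. From top to bottom the circles and diamonds move to lower values together, as a change of scaling makes nearly any miRNA do. miR-148b-3p is right of the diamond and miR-148a-3p left of it in every row.

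The ratio of 2 guides within a library does not depend on the scaling, and it showed the order of miR-148a-3p and miR-148b-3p exchanged between the groups. miR-148a-3p had 0.348, 0.483 and 0.688 tags for each tag of miR-148b-3p in ET1 libraries 1, 2 and 3, against 1.22, 1.3 and 1.56 in untreated libraries 1, 2 and 3. Thus miR-148b-3p outnumbered miR-148a-3p in 3 of 3 ET1 libraries, and miR-148a-3p outnumbered miR-148b-3p in 3 of 3 untreated libraries. The 2 arms are of equal length, but they differ only by C9U and U10C, and neither how tags were assigned between them nor how well each is captured was tested. The mean log2 ratio was −1.03 ± 0.49 in ET1 and 0.44 ± 0.19 in untreated libraries (SD, n = 3 each), a difference of −1.47 on the log2 scale, or 2.77-fold lower in ET1 (exact permutation p = 0.1, two-sided, the smallest that 3 libraries against 3 allow; adjusted p = 0.3 over the 6 ratios compared). With 1 library left out the difference ran from −1.72 to −1.23. Among all 189420 pairs of tested miRNAs, 23.9% had ratios that did not overlap between the groups, so the lack of overlap is no rarer than that.

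The 2 ratios to miR-152-3p overlapped between the groups. miR-148b-3p had 1.25, 0.764 and 0.401 tags for each miR-152-3p tag in ET1 libraries, and 0.224, 0.314 and 0.447 in untreated libraries, a difference in mean log2 ratio of 1.20 (exact permutation p = 0.2, adjusted 0.3). miR-148a-3p had 0.435, 0.369 and 0.276 tags for each miR-152-3p tag in ET1 libraries, and 0.273, 0.409 and 0.699 in untreated libraries, a difference of −0.27 (exact permutation p = 0.7, adjusted 0.7). ET1 library 1 was the only library in which miR-148b-3p exceeded miR-152-3p.

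**Figure D3:**
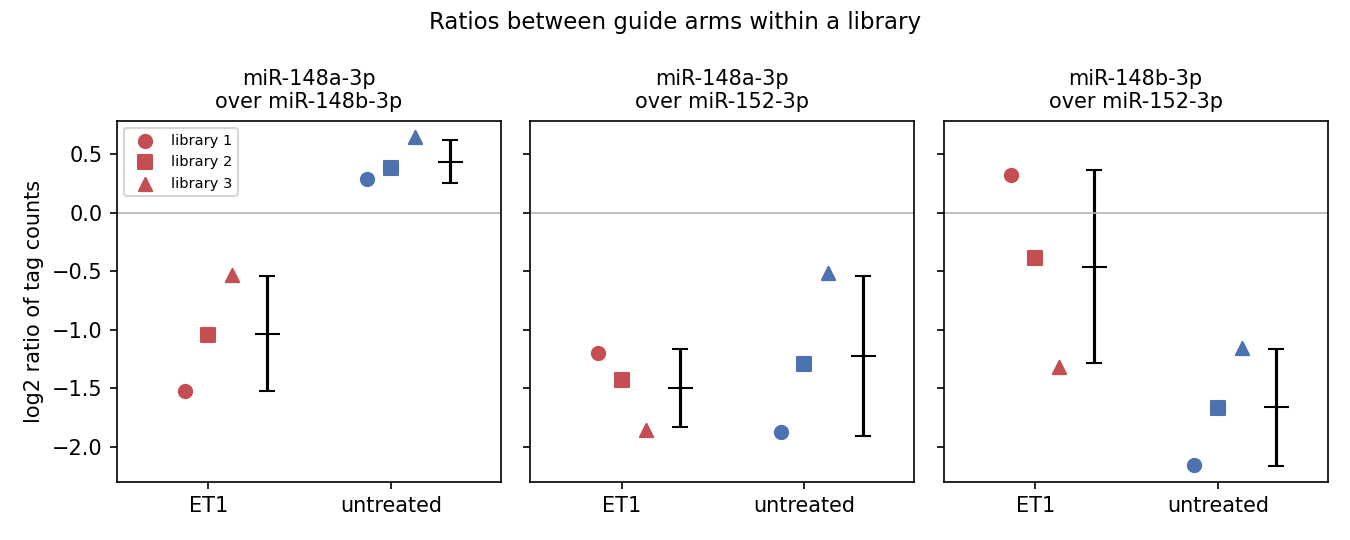
The log2 ratio of tag counts between each pair of guide arms in the 3 ET1 and 3 untreated libraries (0.5 added to each count); symbols mark the library number, the bar is the mean ± SD and the grey line marks equal counts. The ratio of miR-148a-3p to miR-148b-3p is below 0 in each ET1 library and above 0 in each untreated library, and the other 2 ratios overlap between the groups.

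Within the family, the guides made up different parts of the tags. miR-148b-3p held 45.8%, 35.2% and 23.7% of the family's tags in ET1 libraries, against 14.8%, 17.9% and 20.6% in untreated libraries. miR-148a-3p held 15.9%, 17.02% and 16.3% in ET1 libraries, against 18.1%, 23.3% and 32.1% in untreated libraries. miR-152-3p held 36.7%, 46.1% and 59.01% in ET1 libraries, against 66.1%, 57.01% and 46% in untreated libraries. The parts of miR-148a-3p and miR-148b-3p did not overlap between the groups and that of miR-152-3p did; for all tested miRNAs levels without overlap came to 23.5% and ratios without overlap to 23.9% of pairs. The 3 parts are not independent, since they and the passengers add up to the whole.

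**Figure D4:**
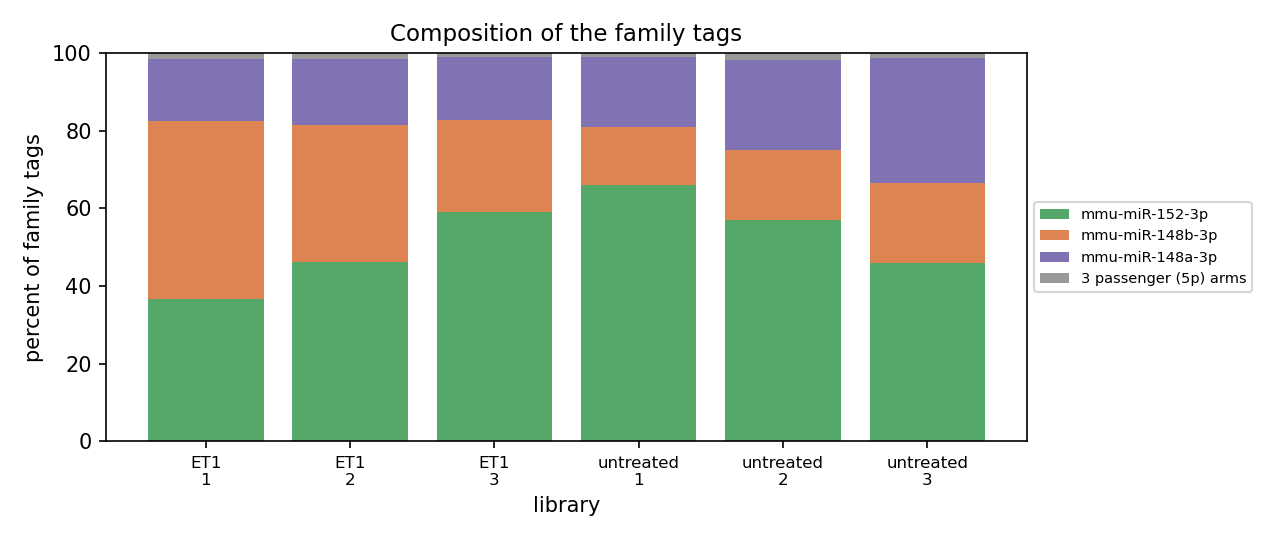
Percent of the family's tags held by each guide arm and by the 3 passenger arms together, in each library. The miR-148b-3p part is 23.7% to 45.8% in ET1 and 14.8% to 20.6% in untreated libraries, and the grey passenger part is thin in every library.

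Guide arms far outnumbered passenger arms at each of the 3 hairpins. The 5p arm made up 4.59% of both arms of miR-148a in the summed ET1 libraries (13 of 283 tags; exact 95% binomial interval 2.47% to 7.73%) and 3.27% in the summed untreated libraries (18 of 550 tags; 1.95% to 5.12%). It made up 1.27% of miR-152 tags in ET1 (10 of 786; 0.612% to 2.33%) and 0.812% in untreated libraries (11 of 1355; 0.406% to 1.45%). For miR-148b it was 0 of 583 tags in ET1 (0% to 0.631%), and 2 of 398 in untreated libraries, or 0.503% (0.0609% to 1.8%). The log2 ratio of 3p to 5p tags of miR-148a was 4.22 ± 0.43 in ET1 and 4.81 ± 0.39 in untreated libraries (exact permutation over 3 libraries a group, p = 0.1, adjusted 0.3), and without the added 0.5 the groups overlapped, at 14.4 to 25.8 guide tags per passenger tag in ET1 and 25.6 to 43 in untreated libraries. That of miR-152 was 6.20 ± 0.96 in ET1 and 6.67 ± 0.76 in untreated libraries (exact permutation p = 0.5, adjusted 0.6). That of miR-148b rests on the added 0.5 wherever its 5p arm was at 0 (exact permutation p = 0.2, adjusted 0.3). Each library held 0 to 7 tags of a passenger, and 3 libraries against 3 could not give a p under 0.1 for any of these ratios. The intervals of the 5p share overlapped between the groups for each of the 3 hairpins.

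Over the 6 libraries, the log2 levels of the guides did not run together: Pearson's r was −0.58 between miR-148a-3p and miR-148b-3p, −0.42 between miR-148b-3p and miR-152-3p and 0.29 between miR-148a-3p and miR-152-3p, values that describe 6 points with a group difference in them. Of the 183 known miRNAs with a mean of at least 100 CPM, those whose log2 level was most like that of miR-152-3p were miR-23a-3p (r = 0.95), miR-29b-1-5p (r = 0.93) and miR-27b-3p (r = 0.92). miR-23a-3p averaged 4899 ± 702 CPM in the ET1 group and 7130 ± 2009 CPM in the untreated group, miR-29b-1-5p 382 ± 128 and 521 ± 157 CPM, and miR-27b-3p 3446 ± 129 and 3918 ± 811 CPM (n = 3 each). None of these 3 passed the test (edgeR adjusted p = 0.38, 0.59 and 0.80). Their r are the highest of 183 values over 6 libraries, so they are high by selection, and a link to miR-152-3p was not tested.

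The family was set beside a list of 9 other miRNAs whose human counterparts are reported to repress DNA methyltransferases. Of these, 8 were tested, miR-101a-3p being under the filter, of which 1 fell and 0 rose, where 0.487% of all 616 fell, and 7 lay below 0 in log2 fold change, as did 305 of the 616 (49.5%). The median was −0.42, against 0.0058 for all tested miRNAs; with library sizes alone 4 of the 8 lay below 0 and the median was −0.052, against 0.37. The one that fell was miR-126a-3p, which is also the main endothelial miRNA, as miR-143-3p is also a smooth muscle marker, with 131 ± 25.8 CPM in the ET1 group and 1602 ± 433 CPM in the untreated group (log2 fold change −3.61; edgeR adjusted p = 0.00019). It did not pass with the share of known miRNA tags as a term or with all named rows fitted together, where no known miRNA did. The most abundant of the list, miR-143-3p, averaged 11789 ± 1506 CPM in the ET1 group and 22500 ± 4132 CPM in the untreated group (log2 fold change −0.93; edgeR adjusted p = 0.10), and miR-29a-3p, of the family that represses the de novo methyltransferases, averaged 6824 ± 1238 and 7397 ± 1993 CPM (log2 fold change −0.12; edgeR adjusted p = 0.88). Others of the list were at or below the 15.2 to 92.4 CPM of the family's guides in single libraries, among them miR-29c-3p (14.7 ± 2.8 CPM in ET1, 17.9 ± 1.19 CPM in untreated), miR-29b-3p (7.8 ± 2.21 CPM in ET1, 5.02 ± 1.47 CPM in untreated) and miR-101b-3p (2.84 ± 1.93 CPM in ET1, 3.51 ± 0.515 CPM in untreated). miR-29b-3p was the tested one above 0, at a log2 fold change of 0.64 (edgeR adjusted p = 0.50).

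In the authors' deposited table, which compares counts pooled over the 3 libraries of each group, miR-148b-3p was listed as up with a log2 ratio of 1.25 (583 pooled tags in ET1, 396 in untreated; deposited q = 2.28e-42). The authors' deposited table listed miR-148a-3p as down with a log2 ratio of −0.28 (270 pooled tags in ET1, 532 in untreated; deposited q = 0.0029) and miR-152-3p as down with −0.096 (776 and 1344 pooled tags; deposited q = 0.044). A test on pooled counts does not see how libraries differ within a group, and 931 of the 1800 miRNAs in the authors' deposited table had a q under 0.05. The deposited log2 ratio exceeded that of the pooled counts by 0.70 in each of the 1257 entries with both values, the log2 ratio of untreated to ET1 pooled tags over the whole of that table. A further row of the count table, the Rfam precursor family named for these miRNAs, was at 0 tags in all 6 libraries.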

How the data were processed

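Per the labels' protocols, TRNzol was used for total RNA and a standard BGI procedure for the small RNA libraries. Bowtie2 and mm10 are named, per the submitters' processing notes; the annotation databases and the handling of tags that match several miRNAs are not given in the sources used here. The authors deposited tag counts per library and a second column headed TPM, which is an RPM over all rows, and a comparison table with pooled counts, a log2 ratio, p-values and q-values. All columns of per-library values were mapped to samples by title.

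The deposited counts of known miRNAs were analysed in edgeR 4.0.16 under R 4.3.3 (TMM over known miRNA rows, default expression filter, robust quasi-likelihood fit, group as the only term). The 4 rows of exon, intron, intergenic and repeat totals, 44.3% to 61.4% of tags, entered no fit. DESeq2 1.42.0, other scalings and filters, a replicate term and leaving out each library were alternatives; the total-tag library size was added after seeing the data. Ratios used log2((count + 0.5)/(count + 0.5)) with exact permutation, adjusted over 6 ratios. The fit was also run on simulated counts with as many rises as falls. That run does not bear on the groups' difference in known miRNA share. All 6 members, miRNAs sharing the guide seed, the 3 most like the most abundant member at 100 CPM or more, and the fixed lists are named. Members and lists were chosen with earlier results of these data known. Counting intervals are exact 95% binomial, and the floor of a 0 is 3 tags; both cover counting error only.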

Additional observations from a re-analysis of the deposited data

How the results depend on the processing

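Under 15 alternatives miR-148a-3p (log2 fold change −1.11 to −0.27) and miR-148b-3p (0.41 to 1.29) kept their sign and did not pass, with adjusted p of 0.30 to 0.86 and 0.15 to 0.89. miR-152-3p (−0.96 to 0.24) did not pass either and changed sign in 1 alternative, at 0.24 with the share of known miRNA tags as a term; the cause was not tested. With 1 library left out they ran from −0.75 to −0.56, 0.48 to 1.14 and −0.66 to −0.084. The count of called known miRNAs, 11, was 39 in DESeq2, 41 with library sizes alone, 37 without a filter, and 0 with the share of known miRNA tags as a term or in a joint fit of all named rows (unadjusted p under 0.05 for 39 and 116), and 2 to 30 with 1 library left out.

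The labels do not say whether the replicate numbers pair the samples, and the main fit did not pair them. Deviations of same-numbered libraries correlated at 0.29, 0.069 and 0.28. Each library correlated best with its own number, which is a hint from the data and not the design. With the number as a replicate block, 21 known miRNAs were called, and the guides, at −0.64 (miR-148a-3p), 0.83 (miR-148b-3p) and −0.38 (miR-152-3p), did not pass.

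On the log2 scale, the difference in the family's share of known miRNA tags ran from 0.14 to 0.42 with 1 library left out and was −0.37 with all tags as denominator. With 1 library left out the differences in log2 ratio ran from −1.72 to −1.23 (miR-148a-3p over miR-148b-3p), −0.59 to 0.085 (miR-148a-3p over miR-152-3p), 0.81 to 1.63 (miR-148b-3p over miR-152-3p), −0.75 to −0.35 (arms of miR-148a), 0.52 to 1.72 (arms of miR-148b, which rest on the added 0.5) and −0.93 to 0.024 (arms of miR-152).

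Depth limits the passenger arms, at 0 to 7 tags a library; for the guides, at 72 to 655 tags, counting error was 3.91% to 11.8%.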
